A study of Mus musculus with 8 samples.

Results

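Guanylate-binding proteins are GTPases that cells make in response to interferon, and 6 mouse genes of the family, Gbp2, Gbp2b, Gbp3, Gbp5, Gbp6 and Gbp7, were followed across 4 treatments of RAW 264.7 cells. The genes were chosen by name, with earlier results of these data known, so counts of them are a description. Every probe set that carries the symbol of 1 of these genes and no other was read, and each gene was represented by the one of highest mean signal across the 8 arrays. Of the 6 genes, 5 had such a probe set, 8 probe sets in all, among 18193 genes with a probe set in the whole table. Gbp5 had none and is not analysed here. Of the other 5 genes, 4 had a mean log2 signal above 4.84, the mean of all probe sets, and were tested with 8908 genes in all, and Gbp6 lay below it.

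RAW 264.7 is a macrophage-like line from a mouse tumor induced with Abelson leukemia virus, and the cells here were a bulk culture of this 1 line. The 4 groups had 2 Affymetrix mouse genome arrays each. Cells of the LPS+M group received menthol for 1 h and then lipopolysaccharide (LPS) at 100 ng/ml for 6 h. The LPS group received the control treatment in place of menthol and then the same LPS, the M group received menthol alone, and the control group (C) received neither. No time of harvest was given for M and C, so a comparison across LPS and no LPS may include a difference in time. The dose of menthol is not in the sample labels. The labels say that replicates are biological but not that the cultures were separate, so the p-values reflect the spread among these arrays and no more, and that spread may be technical. In a bulk culture, fewer cells with an RNA and less of that RNA per cell cannot be told apart.

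The family belongs to the dynamin superfamily of large GTPases. The proteins assemble on the vacuoles of intracellular pathogens and on bacteria in the cytosol, and in mouse macrophages they promote the activation of caspase-11, the sensor of cytosolic LPS that the gene Casp4 encodes, and of the AIM2 inflammasome. Gbp2, Gbp2b (the mouse gene long called Gbp1) and Gbp5 carry a C-terminal motif for a lipid anchor, while Gbp3, Gbp6 and Gbp7 lack it. LPS reaches these genes mainly through interferon-β, which macrophages release after TLR4 is engaged and which acts on the same cells through JAK kinases and, in the nucleus, at the interferon-stimulated response element (ISRE). Interferon-γ acts at the gamma-activated site (GAS), and IRF1 binds the ISRE.

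The promoters show what the genes share in sequence. RefSeq sequences of the GRCm38.p6 build, which run over 300 bases with 250 before the transcription start and 50 after it, were found for 5 of the 6 genes (Gbp2, Gbp2b, Gbp3, Gbp5 and Gbp7). These 5 genes lie on chromosome 3 on the + strand, next to each other in the order Gbp5, Gbp7, Gbp3, Gbp2b and Gbp2, whereas Gbp6 lies on chromosome 5. The ISRE core GAAANNGAAA was searched on both strands, which is TTTCNNTTTC when read on the other strand. The promoters of all 5 genes held it (5 of 6 windows, as Gbp3 has more than 1), against 3.44% of the 32851 promoter windows searched. The stretches below, from the 4 tested genes, are shown because the core lies within them at different distances from the start; capitals mark the core, which matches on the minus strand in each.
Gbp2, chr3:142620564-142620653: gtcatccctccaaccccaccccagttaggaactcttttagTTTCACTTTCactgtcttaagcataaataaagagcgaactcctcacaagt
Gbp2b, chr3:142594670-142594759: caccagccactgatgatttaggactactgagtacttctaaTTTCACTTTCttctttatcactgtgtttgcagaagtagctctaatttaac
Gbp3, chr3:142559959-142560048: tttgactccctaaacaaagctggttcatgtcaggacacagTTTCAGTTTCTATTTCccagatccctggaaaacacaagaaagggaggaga
Gbp7, chr3:142530243-142530332: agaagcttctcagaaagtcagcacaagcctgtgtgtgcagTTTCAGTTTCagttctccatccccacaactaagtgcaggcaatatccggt

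Counted from the transcription start, the core lay at -59 to -50 in Gbp2, at -137 to -128 in Gbp2b and at -53 to -44 in Gbp7. Gbp3 had 2 overlapping matches, at -45 to -36 and at -39 to -30, which make up its longer run of capitals. Gbp2 and Gbp2b held the same 10 letters in capitals, and Gbp3 and Gbp7 shared another form of them. The GAS letters TTCNNNGAA, which read the same on both strands, were found in the promoters of 2 of the 5 genes, Gbp5 and Gbp7, against 8.3% of all windows. In Gbp7 they occurred 2 times, at -106 to -98 and at -87 to -79. The NF-κB consensus was found in 2 of the 5 genes, Gbp2 and Gbp5, against 8.46% of all windows, and in Gbp2 it lay at 8 to 17 after the start. A match of letters describes the sequence and does not show that a factor bound there.

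GC-RMA gave the log2 signals used here; it corrects each probe for background by its GC content and brings the arrays to 1 distribution. The array medians were 2.99 to 3.04. The first principal component held 40.7% and the second 35.1% of the variance over all probe sets. All 8 macrophage markers examined (Adgre1, Cd68, Csf1r, Itgam, Lyz2, Fcgr1, Mrc1 and Cd14) had a mean above 4.84. None of the markers of T cells (3 with a probe set), B cells (2), fibroblasts (3) or epithelial cells (4) did, and their values stayed between 1.68 and 4.04. A gene was called changed when its Benjamini-Hochberg adjusted p over all tested genes was under 0.05 in limma and its fold change was at least 1.5. Each ± gives the standard error of a log2 fold change. With 2 arrays a group, the smallest two-sided p of an exact permutation test is 0.333, so none was run.

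Gbp2, which carries a lipid anchor and takes part in caspase-11 responses to Gram-negative bacteria in mouse macrophages, had log2 signals of 7.55 and 7.68 in LPS+M and 8.68 and 8.99 in LPS. Its signals were 5.41 and 5.74 in M and 5.78 and 5.86 in C. The groups did not overlap, with LPS highest, LPS+M next, and C and M at the low end only a short distance apart. Gbp2b, also a lipid-anchored member, had 6.11 and 6.44 in LPS+M and 7.84 and 7.86 in LPS. It had 4.10 and 3.94 in M, against 4.10 and 4.18 in C. LPS was again highest and LPS+M in between, while the M and C arrays overlapped.

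Gbp3, a member without a lipid anchor motif, had log2 signals of 9.85 and 10.09 in LPS+M and 10.79 and 10.80 in LPS. In M its signals were 7.90 and 7.76, against 8.23 and 8.31 in C. All 4 groups were apart, in the order LPS, LPS+M, C and M. Gbp7, which also lacks the anchor, had another order: 4.59 and 4.64 in LPS+M, 6.62 and 6.35 in LPS, 3.74 and 4.36 in M, and 4.60 and 4.63 in C. Only the LPS arrays stood above the rest, LPS+M and C overlapped, and the M arrays were lowest and lay farther from each other than those of any other group. The mean of Gbp7 over the 8 arrays, 4.94, passed the filter only through its LPS arrays, and Gbp2b passed through LPS and LPS+M.

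**Figure D1:**
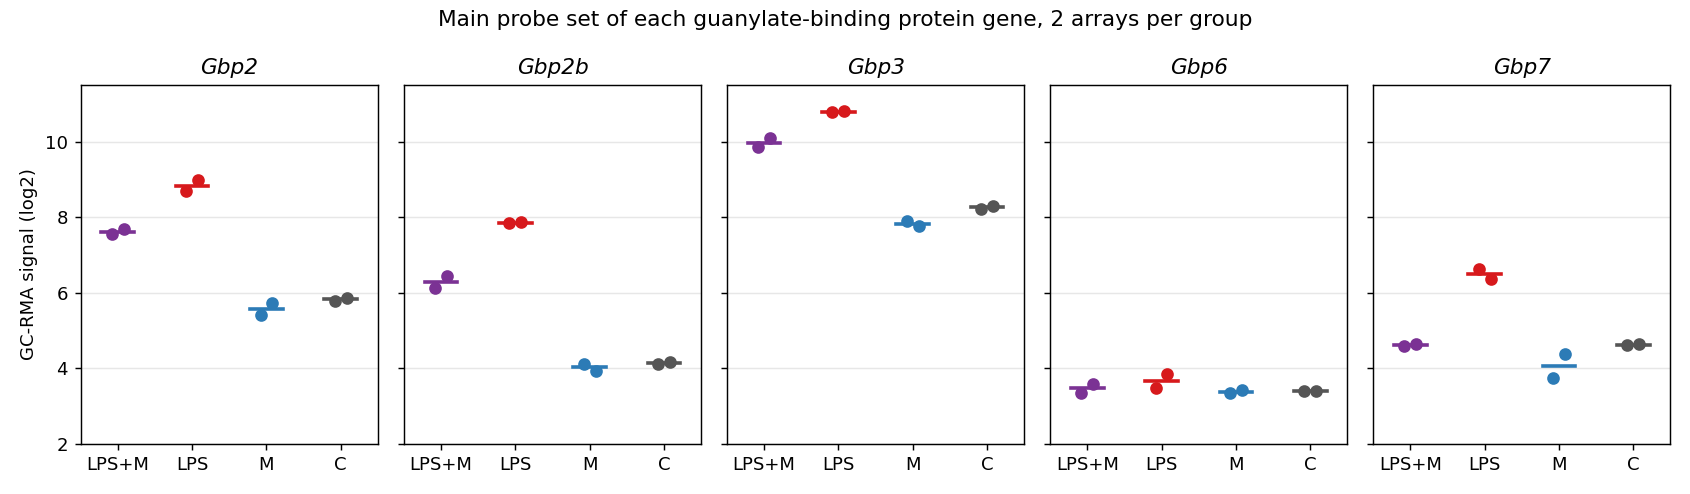
Log2 GC-RMA signal (y axis) of the main probe set of Gbp2, Gbp2b, Gbp3, Gbp6 and Gbp7 in LPS+M, LPS, M and C (x axis); points are arrays and bars are the means of 2 arrays. LPS+M lies between LPS and C for Gbp2, Gbp2b and Gbp3, lies at the level of C for Gbp7, and Gbp6 stays between 3.35 and 3.86 in all groups.

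The 4 tested genes were higher in LPS than in C. Among the main probe sets, the largest change was that of Gbp2b, 3.71 ± 0.11 on the log2 scale, which is 13.1-fold (limma adjusted p = 1.57e-06). Gbp2 rose by 3.02 ± 0.13 or 8.10-fold (6.28e-06), Gbp3 by 2.53 ± 0.09 or 5.77-fold (3e-06) and Gbp7 by 1.87 ± 0.18 or 3.66-fold (0.000364). Of all genes tested, 3.17% were called higher and 2.96% lower in LPS than in C. The median change of the 4 genes was 2.77, beside -0.03 over all genes tested. The counts and medians of the 4 genes, here and in the comparisons that follow, are only a description. Gbp2b and Gbp7 entered the test through the arrays in which they were high. With no filter and 1 probe set a gene, 4 of 5 measured members were called higher in LPS, where 1.54% of 18193 genes were called higher and 1.43% lower.

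The same 4 genes were lower in LPS+M than in LPS. Among the main probe sets, Gbp7 had the largest change, -1.88 ± 0.18 or 3.67-fold lower in LPS+M (adjusted p = 0.000452). Gbp2b changed by -1.57 ± 0.11 or 2.97-fold (0.000128), Gbp2 by -1.22 ± 0.13 or 2.34-fold (0.000669) and Gbp3 by -0.82 ± 0.09 or 1.77-fold (0.000775). The place of Gbp7 rests on its main probe set, as its second probe set changed by -1.11. Of all genes tested, 2.49% were called lower and 4.22% higher in LPS+M than in LPS. The median change was -1.40 for the 4 genes and 0.03 over all genes. The count and median of the 4 genes are again only a description. Gbp7 passed the filter through its LPS arrays, and Gbp2b through LPS and LPS+M. With no filter, 4 of 5 members were called lower, where 1.18% of all genes were called lower and 1.94% higher. This comparison and that of LPS with C share the LPS arrays, so a chance deviation of these arrays enters both with opposite sign. The calls of Gbp2b and Gbp3 in this comparison were not made by the methods' t-test (unadjusted p), and that of Gbp3 is under a 2-fold minimum.

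Among cells that had received menthol, 3 of the 4 genes were higher with LPS than without it. In LPS+M compared to M, Gbp2b rose by 2.26 ± 0.11 or 4.79-fold (adjusted p = 1.48e-05), Gbp3 by 2.15 ± 0.09 or 4.43-fold (8.7e-06) and Gbp2 by 2.04 ± 0.13 or 4.11-fold (6.35e-05). Gbp7 had a change of 0.56 ± 0.18 (0.0811) and was not called, and without M replicate 2 the value was 0.87 and passed (0.00916). In this comparison 3 of the 4 genes were called higher, beside 2.39% of all genes higher and 1.77% lower. Gbp2b entered the test through its LPS and LPS+M arrays. With no filter, 3 of 5 members were called higher, where 1.15% of 18193 genes were called higher and 0.759% lower.

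LPS+M compared to C gave the level that was left after both treatments. Gbp2b was 2.14 ± 0.11 higher or 4.41-fold (adjusted p = 1.09e-05), Gbp2 1.79 ± 0.13 or 3.47-fold (5.39e-05) and Gbp3 1.71 ± 0.09 or 3.26-fold (1.28e-05). Gbp7 was at -0.0046 ± 0.18 (0.99). Of the log2 rise over C seen with LPS alone, LPS+M thus held 67.4% in Gbp3, 59.5% in Gbp2 and 57.6% in Gbp2b, whereas in Gbp7 it held -0.246%. These shares rest on the same C arrays on both sides. They are shares on the log2 scale and not of the signal itself. As folds over C, LPS and LPS+M were at 5.77 and 3.26 in Gbp3, 8.10 and 3.47 in Gbp2, and 13.1 and 4.41 in Gbp2b. Of all genes, 5.53% were called higher and 4.3% lower in LPS+M than in C, and 3 of the 4 tested members were called higher. Here too Gbp2b entered the test through its LPS and LPS+M arrays. With no filter, 3 of 5 members were called higher, where 2.73% of 18193 genes were called higher and 2.17% lower.

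No member was called in either direction in M compared to C by limma, where 3.01% of all genes were higher and 1.54% lower in M than in C. The 4 estimates were below 0, and 2 of them had an unadjusted p under 0.05. Gbp7 was at -0.57 ± 0.18 (adjusted p = 0.0611) and, without M replicate 2, at -0.88 and called (0.0114). Gbp3 was at -0.44 ± 0.09 (0.0133), under the 1.5-fold minimum. Gbp2 was at -0.24 ± 0.13 (0.228) and Gbp2b at -0.12 ± 0.11 (0.49).

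Whether the response to LPS differed with menthol was tested as an interaction, the change of LPS+M from M minus the change of LPS from C. It was called for Gbp2b alone of the 4 genes, at -1.45 ± 0.16 (adjusted p = 0.0182), so that its response to LPS was smaller by that amount on the log2 scale with menthol. Gbp7 was at -1.31 ± 0.26 (0.129), Gbp2 at -0.98 ± 0.19 (0.124) and Gbp3 at -0.38 ± 0.13 (0.343), and the unadjusted p was under 0.05 for each of the 4. Of all genes, 0.202% were called lower and 0.0337% higher in this test. The call of Gbp2b was lost with no filter on the mean (0.0996) and without any single array of the C, LPS or M groups (0.0508 to 0.0947), with estimates of -1.54 to -1.37, and over its 16 alternatives the adjusted p ran from 0.00915 to 0.0996.

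**Figure D2:**
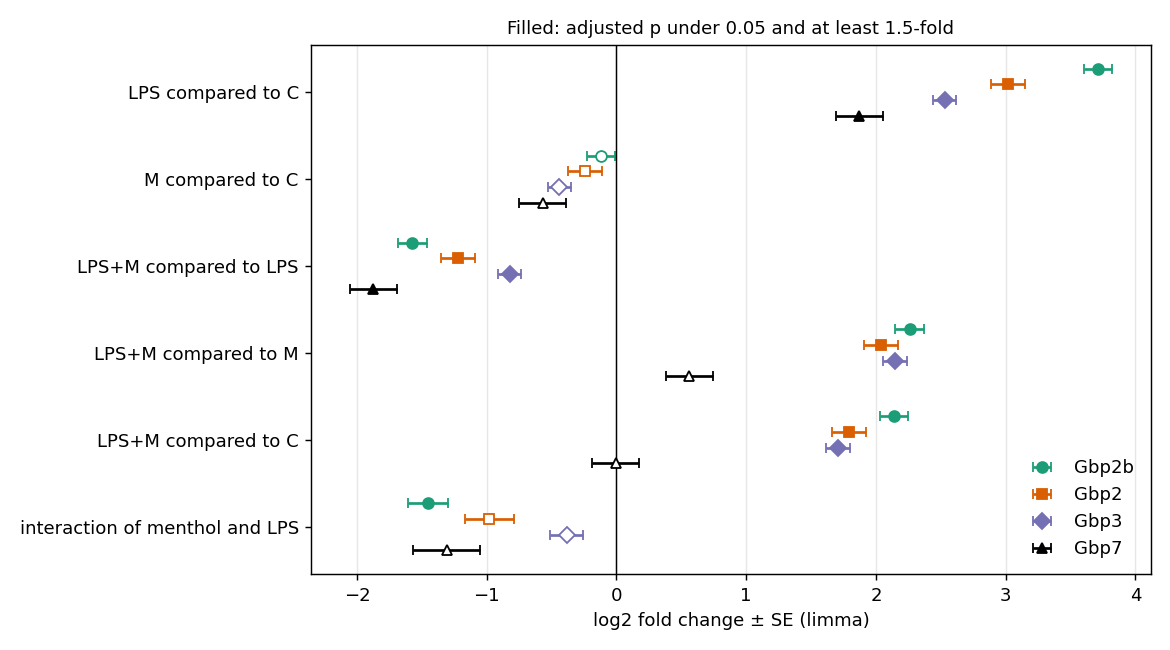
Log2 fold change with its standard error from limma (x axis) of Gbp2, Gbp2b, Gbp3 and Gbp7 in the 6 comparisons (y axis); filled marks passed both thresholds of a call. Gbp7 lies near 0 in LPS+M compared to C (-0.0046), where the other 3 genes lie between 1.71 and 2.14.

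The second probe sets of Gbp2 and Gbp7 were read to see whether 1 gene gave the same picture with other probes. Probe sets of this family can pick up related members, since the genes are alike in sequence, and the main probe set of Gbp2 (1435906_x_at) is of the type that the array's maker marks as able to bind other transcripts. The values hold no detection call, so a low signal has no stated limit. Gbp2 probe set 1418240_at had log2 signals of 6.86 and 6.98 in LPS+M and 8.27 and 8.50 in LPS. In M it had 4.65 and 4.02, against 3.95 and 4.61 in C. The order of LPS over LPS+M over the other groups was that of the main probe set, with M and C overlapping.

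Fitted with all 34945 probe sets of 1 symbol, Gbp2 1418240_at was 4.10 ± 0.29 higher in LPS than in C (adjusted p = 0.00249), against 3.02 for the main probe set. It was at -1.46 ± 0.29 in LPS+M compared to LPS (0.043) and 2.59 ± 0.29 in LPS+M compared to M (0.0138). Its interaction of -1.52 ± 0.41 was not called (0.5). Both probe sets of Gbp2 thus placed LPS+M between LPS and C.

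Gbp7 probe set 1425156_at had log2 signals of 2.51 and 2.51 in LPS+M and 3.61 and 3.64 in LPS. It had 2.52 and 2.46 in M, against 2.54 and 2.51 in C. Only the LPS arrays stood apart, as with the main probe set, and the M arrays, which differed from each other with the main probe set, did not do so here. This probe set was 1.10 ± 0.03 higher in LPS than in C (adjusted p = 0.000191) and at -1.11 ± 0.03 when LPS was subtracted from LPS+M (0.000527). LPS+M minus M was 0.02 ± 0.03 (0.901), and LPS+M minus C was -0.01 ± 0.03 (0.998). Its interaction of -1.08 ± 0.04 was called (0.0114), which that of the main probe set of Gbp7 was not. Its signal outside LPS lay above only 33.6% to 34.9% of all probe sets.

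Gbp6, which lies apart from the others on chromosome 5, had low signals throughout. Its main probe set 1438676_at gave 3.35 and 3.58 in LPS+M, 3.48 and 3.86 in LPS, 3.35 and 3.41 in M, and 3.40 and 3.41 in C. LPS+M and LPS overlapped, and the highest array was in LPS. In the fit with no filter the change was 0.27 ± 0.13 in LPS compared to C (adjusted p = 0.408), and LPS+M minus LPS gave -0.20 ± 0.13 (0.566), and no comparison called it. The other probe set, 1447927_at, had 2.35 and 2.41 in LPS+M, 2.54 and 2.90 in LPS, 2.32 and 2.31 in M, and 2.37 and 2.32 in C. The LPS arrays were the highest there too, at 0.38 ± 0.11 over C (0.17), which was not called.

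**Figure D3:**
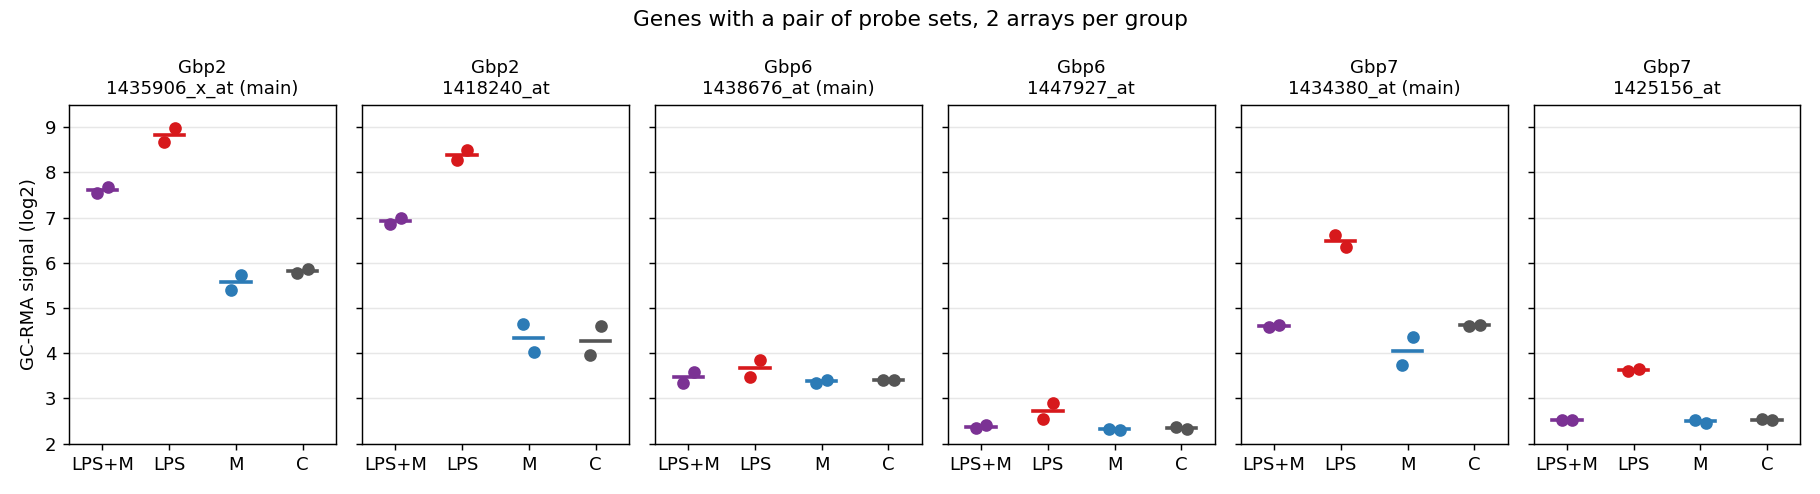
Log2 GC-RMA signal (y axis) in LPS+M, LPS, M and C (x axis) for both probe sets of Gbp2, Gbp6 and Gbp7; points are arrays and bars are the means of 2 arrays. Only LPS stands apart for both Gbp7 probe sets, and LPS+M lies between LPS and C for both Gbp2 probe sets.

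Over the 8 probe sets, 6 were called higher in LPS than in C and 6 lower in LPS+M than in LPS, all but the pair of Gbp6. In that fit 1.2% of all probe sets were called higher with LPS and 1.24% lower with menthol before LPS. In LPS+M compared to M, 4 of the 8 were called higher, those of Gbp2, Gbp2b and Gbp3, beside 0.873% of all probe sets. For the interaction, 1 of the 8 was called lower, 1425156_at of Gbp7, beside 0.0286%. The interaction of Gbp2b was not called in that fit (adjusted p = 0.132). Across the 8 arrays, the main probe sets of Gbp2, Gbp2b and Gbp3 followed each other most closely (Pearson r of 0.989 to 0.993), and Gbp7 followed them less closely (0.816 to 0.858). These correlations rest on arrays that share 4 treatments and describe them only.

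Other interferon-inducible GTPases act beside the family on pathogen vacuoles. Of 16 genes listed, 8 had a probe set and 4 were tested: Igtp, Irgm1, Irgm2 and Ifi47. Of these, 1 was called higher in LPS than in C, beside 3.17% of all genes, and 2 lower in LPS+M than in LPS, beside 2.49%, with medians of 0.41 and -0.50. Igtp (Irgm3), which keeps other GTPases off the cell's own membranes, had signals of 6.11 and 6.05 in LPS+M, 6.64 and 6.74 in LPS, 6.09 and 6.39 in M, and 5.88 and 6.16 in C. It rose by 0.67 ± 0.12 with LPS (adjusted p = 0.00735) and its value for LPS+M minus LPS was -0.61 ± 0.12 (0.00949), with calls in both. The first was lost without C replicate 1 (0.53) and under the methods' t-test (unadjusted p). The other was lost without LPS replicate 2 (-0.56) or LPS+M replicate 2 (-0.58), and both were lost at a 2-fold minimum.

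Ifi47 (Irg-47), a GTPase of the same group, had 6.17 and 6.10 in LPS+M, 6.971 and 7.002 in LPS, 5.87 and 5.85 in M, and 6.52 and 6.36 in C. It fell in LPS+M compared to LPS, by 0.85 ± 0.07 (adjusted p = 0.000224), and its change with LPS, 0.55 ± 0.07 (0.00143), was under the fold minimum. In M compared to C, Ifi47 was at -0.58 ± 0.07 (0.00182) and missed only the fold minimum. Its interaction of -0.27 ± 0.10 was not called (0.386). Irgm1 and Irgm2 were called neither in LPS compared to C nor in LPS+M compared to LPS. In LPS+M compared to LPS, Irgm1 was at -0.40 ± 0.07 (adjusted p = 0.00664) and missed only the fold minimum, while Irgm2 was at -0.10 ± 0.12 (0.577). The antiviral GTPase genes Mx1 and Mx2 had signals of 3.01 to 3.18 and of 1.83 to 1.87 over all 8 arrays, and Iigp1 had 3.25 to 3.39. All 3 lay under the filter in every array.

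Gbp8 is a guanylate-binding protein as well, but it was not 1 of the 6 genes followed, so the counts of members leave it out. It was in the list of other GTPases and was singled out after its values were seen. Gbp8 lay under the filter and was not among the 8908 genes tested. Its log2 signals were 4.56 and 4.94 in LPS+M, 3.40 and 3.38 in LPS, 5.27 and 5.45 in M, and 4.89 and 4.64 in C. The LPS arrays were the lowest here and pulled down the mean that the filter used, whereas those of the tested members were the highest. In the fit with no filter Gbp8 changed by -1.37 ± 0.15 in LPS compared to C (adjusted p = 0.00481). It changed by 1.36 ± 0.15 in LPS+M compared to LPS (0.00508), and both changes were called.

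The interferon pathway that leads to these genes was given by 21 genes, of which 20 had a probe set and 15 were tested. In LPS compared to C, 4 of the 15 were called higher, beside 3.17% of all genes, and none lower, beside 2.96%. In LPS+M compared to LPS, 1 was called higher, beside 4.22%, and 1 lower, beside 2.49%, and the medians were 0.12 and 0.02. The signals of Ifnb1, which encodes interferon-β, stayed between 2.37 and 2.42 in the 8 arrays and those of Ifng, the interferon-γ gene, between 2.53 and 2.58, both under the filter. Irf1, a factor that binds the ISRE, was at 0.09 ± 0.08 in LPS compared to C (adjusted p = 0.457) and its value for LPS+M minus LPS was -0.14 ± 0.08 (0.236). Irf1 was at 0.41 ± 0.08 in M compared to C (0.0109) and at -0.45 ± 0.08 in LPS+M compared to M (0.00939). Both of these missed only the fold minimum.

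Among the genes of that pathway that were called, Usp18, which encodes an interferon-induced protease that holds back the type I interferon receptor, was called higher in LPS than in C and lower in LPS+M than in LPS. It had 6.43 and 6.39 in LPS+M, 8.52 and 8.77 in LPS, 6.44 and 6.68 in M, and 6.89 and 7.34 in C. Only LPS was high, and LPS+M lay below C, at -0.71 ± 0.15 (adjusted p = 0.00945). Socs3, which encodes an inhibitor of JAK signaling, rose by 3.14 ± 0.12 with LPS (3.03e-06) and its value for LPS+M minus LPS was 0.08 ± 0.12 (0.632). Jak2, the gene of a kinase of the interferon-γ receptor, rose by 1.54 ± 0.07 with LPS (9.68e-06) and by a further 0.62 ± 0.07 in LPS+M compared to LPS (0.000927). The second change was not called without LPS+M replicate 1 (0.56), by the methods' t-test (unadjusted p) or at a 2-fold minimum. Tyk2, the gene of a kinase of the type I interferon receptor, rose by 0.60 ± 0.08 with LPS (0.00159). That call was lost when its probe sets were averaged (0.30), without C replicate 2 (0.58) and without LPS replicate 2 (0.49). It was also lost under the methods' t-test (unadjusted p) and at a 2-fold minimum.

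Further lists held the genes that guanylate-binding proteins act on or need, and their counts stand beside the same shares of all genes (3.17% higher in LPS than in C, and 4.22% higher and 2.49% lower in LPS+M than in LPS). Of 14 inflammasome and pyroptosis genes 9 were tested, of which 2 were called higher in LPS than in C and none was called by limma in LPS+M compared to LPS (5 had an unadjusted p under 0.05, and the medians were -0.06 and -0.07). Casp4 had 10.5 and 10.3 in LPS+M, 10.5 and 10.5 in LPS, 8.18 and 8.35 in M, and 8.49 and 8.71 in C. The groups with LPS stood together above those without. It rose by 1.91 ± 0.10 with LPS (adjusted p = 1.56e-05) and its value for LPS+M minus LPS was -0.12 ± 0.10 (0.394). Casp1, which encodes the caspase that matures interleukin-1β, rose by 0.59 ± 0.07 (0.000968), close to the fold minimum, and was not called without LPS replicate 2 (0.57) or with the arrays shifted to the same median (0.58).

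Il1b, the interleukin-1β gene of that list, lay under the filter and was singled out after its values were seen. Its log2 signals were 3.15 and 3.22 in LPS+M, 5.90 and 5.41 in LPS, 3.09 and 3.08 in M, and 3.10 and 3.08 in C. Only the LPS arrays were high. In the fit with no filter Il1b rose by 2.56 ± 0.15 in LPS compared to C (adjusted p = 0.000798) and fell by 2.47 ± 0.15 in LPS+M compared to LPS (0.00102).

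The ATG8 conjugation system directs guanylate-binding proteins to vacuoles, and 13 of its 14 genes were tested. At an unadjusted p under 0.05 in limma, 2 of the 13 were higher in LPS than in C, and 9 were higher in LPS+M than in LPS. None was lower in either. In M compared to C, 7 of the 13 were higher and none lower at that threshold, and for the interaction 1 was lower. The share of all genes at that threshold was not counted, so these counts are only a description. In each of the comparisons of LPS with C and of LPS+M with LPS, 1 was called higher and none lower, with medians of -0.02 and 0.23. That gene was Sqstm1, which encodes the autophagy receptor p62, at 0.91 ± 0.06 (adjusted p = 6.13e-05) and at 0.59 ± 0.06 (0.000669), and neither call held when its probe sets were averaged (0.57 and 0.42). The second was also lost without LPS replicate 2 (0.54) or LPS+M replicate 1 (0.57) and under quantile normalization (0.58). Of 8 genes of protein prenylation, which attaches the lipid anchor, 7 were tested and none was called in any of the 6 comparisons by limma, where at most 1 had an unadjusted p under 0.05 in a comparison.

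**Figure D4:**
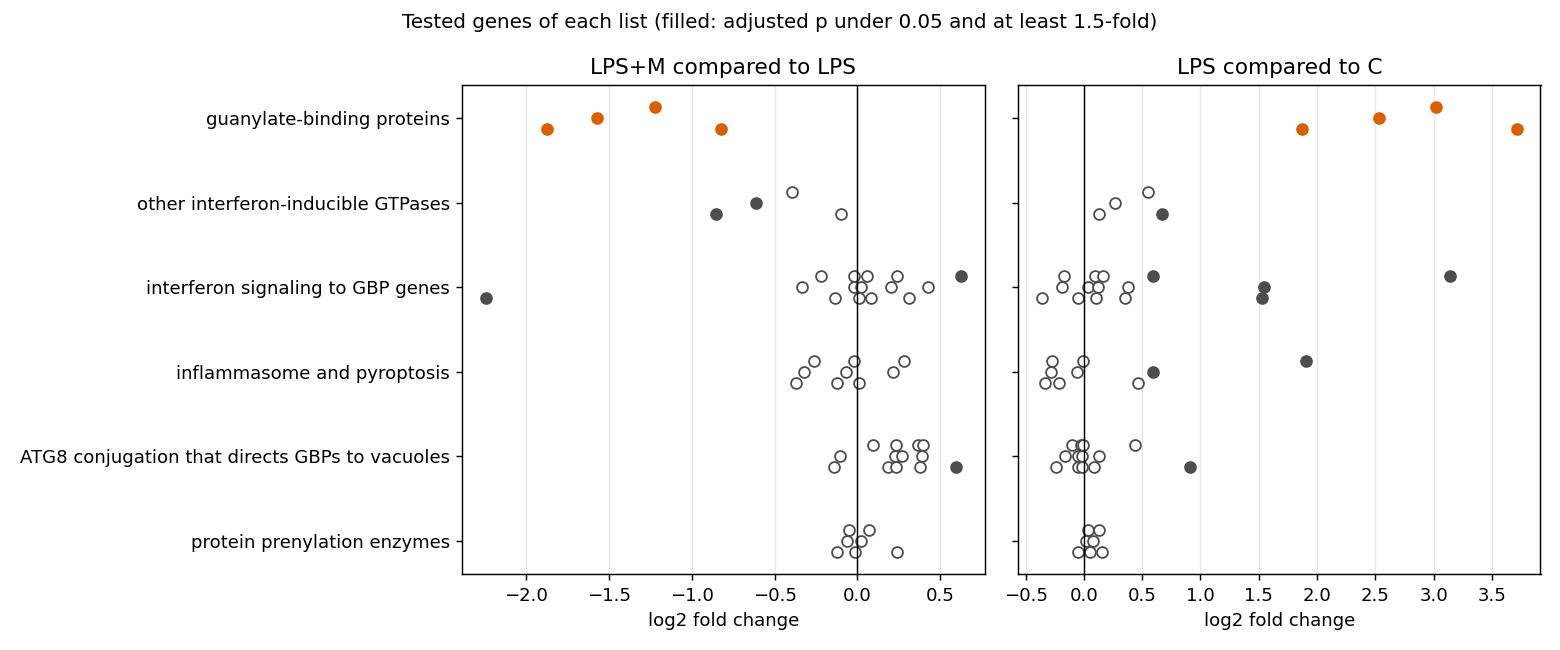
Log2 fold changes (x axis) of the tested genes of each list (y axis) in LPS compared to C and in LPS+M compared to LPS; each point is a gene, and filled points passed both thresholds of a call. The 4 tested guanylate-binding proteins lie between 1.87 and 3.71 with LPS and between -1.88 and -0.82 in LPS+M compared to LPS.

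The genes most alike in pattern were ranked by the Pearson r over the 8 arrays with the mean of the 4 centred members, among 791 tested genes whose signal ranged over at least 1 on the log2 scale. They were Cyria (0.998), Adgre1 (0.997), Ube2e2 (0.996), Ctu1 (0.995) and Cxcl10 (0.994). The ranking used the values that follow, which are a description. Cxcl10, an interferon-inducible chemokine, had 7.90 and 8.20 in LPS+M, 9.24 and 9.25 in LPS, 6.43 and 6.70 in M, and 6.48 and 6.65 in C. Cyria, whose protein binds RAC1, had 8.87 and 8.95 in LPS+M, 10.0 and 10.2 in LPS, 7.26 and 7.24 in M, and 7.63 and 7.58 in C. In both genes LPS was highest and LPS+M in between, with changes of 2.68 and 2.51 in LPS compared to C and of -1.20 and -1.20 in LPS+M compared to LPS. When its probe sets were averaged, Cyria had 1.26 and -0.60. Adgre1, the F4/80 macrophage marker, Ube2e2, a ubiquitin-conjugating enzyme, and Ctu1, a tRNA thiolation enzyme, had smaller changes of 0.90 to 1.18 with LPS and of -0.52 to -0.49 in LPS+M compared to LPS.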

How the data were processed

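The deposited values are log2 signals that the authors obtained by GC-RMA from 8 arrays hybridised with biotin-labelled cRNA made from total RNA; the submitters' processing notes name R 2.6.1 and GCRMA 2.10.0. The values were used as deposited. Of 45101 probe sets, 34945 carry 1 symbol in the platform annotation and were used, 932 carry several, 9160 none and 64 are controls. All comparisons came from 1 limma 3.58.1 fit (lmFit and eBayes, R 4.3.3) over the 8 arrays, with a coefficient for each of 4 groups, 4 residual and 3.78 prior degrees of freedom. The same fit was run with no filter and over every probe set. The text names the members with every probe set, up to 4 called genes of each list with the largest change in LPS compared to C and in LPS+M compared to LPS, and the 5 genes most alike in pattern, besides others named for context after their values were seen. The members and lists were chosen with earlier results of these data known. The alternatives were other filters, the mean of a gene's probe sets, quantile normalization, a shift to the same median, only the compared groups, trended and robust eBayes, other fold minimums, the methods' t-test, the replicate number as a block, and each array left out. The number of arrays limits the precision.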

Additional observations from a re-analysis of the deposited data

Results flagged for a closer look

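The response of Gbp2b to LPS differed between cells with and without menthol by -1.4532 on the log2 scale (limma interaction, adjusted p = 0.0182). It is listed because the difference itself was tested. Both LPS+M arrays (6.11 and 6.44) lay below both LPS arrays (7.84 and 7.86), while M (4.10 and 3.94) and C (4.10 and 4.18) overlapped. Gbp2b entered this fit through its LPS and LPS+M arrays, and the call was lost with no filter (0.0996), over every probe set (0.132) and without any single array of the C, LPS or M groups (0.0508 to 0.0947).

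The same test gave -1.0797 for 1425156_at, the second probe set of Gbp7 (adjusted p = 0.0114 over every probe set). Its LPS arrays (3.61 and 3.64) stood alone, and its LPS+M, M and C arrays, at 2.46 to 2.54, lay under the array medians of 2.99 to 3.04, so that its small standard error of 0.04 comes with near-identical low signals in those groups. Whether these signals are at background was not tested.

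Usp18 gave -1.6811 (adjusted p = 0.0419), which was not called with no filter (0.15) and was lost in 8 of 17 alternatives (0.011 to 0.225). Cyria gave -0.84432 (0.0222), but it was chosen for its likeness to the members on these same arrays, so its value is a description. Its call was lost with no filter (0.0722) and in 10 of 17 alternatives in all (0.0112 to 0.156).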

How the results depend on the processing

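No called value of a member turned its sign under any alternative run. With no filter on the mean, the interaction called 0 of 5 members by limma (4 at an unadjusted p under 0.05). In that fit 0.0055% of all 18193 genes were called lower and 0 higher, and the share at an unadjusted p was not counted. With the probe sets of a gene averaged, Gbp7 fell under the filter and was not tested. With a mean above 6, only Gbp2 and Gbp3 were tested, so 2 were called higher in LPS compared to C, 2 lower in LPS+M compared to LPS and 0 in the interaction. The methods' t-test with an unadjusted p called 2 of 4 lower in LPS+M compared to LPS (Gbp2 and Gbp7). After Benjamini-Hochberg it called 0 in each of LPS compared to C, LPS+M compared to LPS, LPS+M compared to M and LPS+M compared to C (adjusted p of 0.287 or more), where the unadjusted counts were 4, 2, 3 and 3, and it called 0 of all 8908 genes. With no fold minimum, Gbp3 was called lower in M compared to C (1 member). Leaving out each array gave 0 to 1 members called lower in the interaction and 0 to 1 in M compared to C. The member called in the interaction was Gbp2b with LPS+M replicate 1 or LPS+M replicate 2 left out, and Gbp7 in place of Gbp2b without M replicate 1. Without either LPS array Gbp7 fell under the filter. The cause of these changes was not tested, apart from the fewer genes tested.

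The replicate numbers were not shown to pair the arrays (r of deviations between same-numbered arrays of -0.12 to 0.19 over 6 pairs of groups). A replicate block called 2 members lower in the interaction, Gbp2b and Gbp2 (0.0341), and changed no other call of a member. With the numbers of LPS+M crossed, an alternative chosen after seeing the data, a replicate block called 3 members higher in LPS+M compared to C, as without it. Counts over all genes moved more: over the alternatives, 0 to 813 genes were called higher in LPS compared to C (282 in the limma fit given above) and 0 to 1018 lower in LPS+M compared to LPS (222). Gbp7 in LPS+M compared to C, never called, changed sign in 3 of 17 alternatives (-0.03 to 0.02). The methods' t-test and a fit of only the compared groups were not run for the interaction. For the other named genes, no called value turned its sign in 30 pairs of a gene and a comparison.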
